A study of Caenorhabditis elegans with 2 samples.

Results

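ELT-3 is a GATA-type transcription factor of the hypodermis, the epithelium that covers Caenorhabditis elegans and makes its cuticle. The 10 genes described here, nlp-24, nlp-25, nlp-27, nlp-28, nlp-29, nlp-30, nlp-31, nlp-32, nlp-33 and nlp-34, encode short secreted peptides rich in glycine and tyrosine and are expressed in that tissue. They were listed by name for that expression. The rule uses no measured value, although earlier results of these data were known when the list was drawn up. All 10 were found among the 19973 nuclear protein-coding genes of the annotation. Chromatin immunoprecipitation with sequencing (ChIP-seq) was done on whole second-stage (L2) larvae of both sexes, strain OP75 with the genotype unc-119(ed3) III; wgIs75, a transgenic line in which ELT-3 carries a GFP-FLAG tag at its C-terminus. The labels give 1 group of 2 biological replicates, all from this 1 line, and the deposited lists were called against 1 control alignment that is not analysed here. No comparison between conditions is possible, so the values below compare the replicates with each other and the listed genes with all genes.

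As background, the hypodermis is the worm's first barrier to fungi and to wounding. Spores of the fungus Drechmeria coniospora and punctures of the cuticle induce genes of this group, with nlp-29 the usual reporter of that response. The induction runs through a G protein-coupled receptor, protein kinase C, the adaptor TIR-1 and a p38 MAP kinase cascade to the STAT-like factor STA-2, and ELT-3 is known to be needed for full nlp-29 reporter expression. The larvae studied here were not described as infected or wounded.

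Each list held 30000 regions of peaks together with background, ranked here by the authors' signal value, with rank 1 the highest. A region was given to a gene when its summit lay in the gene or up to 2000 bp upstream of its annotated start. Most genes pass that rule. The authors' q-value was under 0.05 for 15 pooled regions, 0 of replicate 1 and 15 of replicate 2, and for 0 regions at the 10 genes in any of these lists. In the pooled list the signal value ran from 12.6 to 94.8 with a median of 16.4. The medians were 9.85 in replicate 1 and 9.53 in replicate 2, and signal values are not compared between lists. The depth of the libraries is unknown.

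The 3 stretches that carry most of what follows are printed from the WBcel235 genome (ce11 coordinates), plus strand, because they lie under the highest regions of nlp-24 and nlp-33 and between the divergent genes nlp-34 and nlp-31. Capitals mark the GATA words TGATAA and AGATAA with TGATAG as well as AGATAG on either strand, so that CTATCA is TGATAG read on the minus strand. The first is the 201 bases around the pooled summit upstream of nlp-24, chrV:11614868-11615068. The second is the 300 bases before the annotated start of nlp-31, chrV:3979755-3980054. The third is the 201 bases around the pooled summit in nlp-33, chrV:11147385-11147585.
nlp-24: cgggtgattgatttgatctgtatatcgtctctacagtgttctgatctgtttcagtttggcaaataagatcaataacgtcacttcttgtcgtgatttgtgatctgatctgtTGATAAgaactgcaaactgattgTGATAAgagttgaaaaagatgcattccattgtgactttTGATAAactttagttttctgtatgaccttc
nlp-31: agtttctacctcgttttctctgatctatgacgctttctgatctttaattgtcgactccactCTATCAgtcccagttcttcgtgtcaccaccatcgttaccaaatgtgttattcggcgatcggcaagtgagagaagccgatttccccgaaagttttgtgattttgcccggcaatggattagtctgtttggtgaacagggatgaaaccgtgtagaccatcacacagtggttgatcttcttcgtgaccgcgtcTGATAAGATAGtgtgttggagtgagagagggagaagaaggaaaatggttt
nlp-33: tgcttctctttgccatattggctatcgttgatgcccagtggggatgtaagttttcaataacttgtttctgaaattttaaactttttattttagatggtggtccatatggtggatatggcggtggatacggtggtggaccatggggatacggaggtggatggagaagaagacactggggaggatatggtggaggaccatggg
The nlp-24 stretch holds 3 TGATAA sites, all on the plus strand. The nlp-31 stretch holds 1 TGATAA that overlaps an AGATAG by 1 base, and 1 further TGATAG on the minus strand. The nlp-33 stretch holds 0 of these words, and its letters span parts of both exons and the intron between them.

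The 10 genes stood on 2 chromosomes. The genes nlp-34, nlp-31, nlp-30, nlp-29, nlp-28 and nlp-27 form a cluster on chromosome V, from 3978825 to 3989770 (10946 bp), with no other protein-coding gene inside it. The genes nlp-33 (11147346 to 11147737, plus strand), nlp-24 (11616376 to 11616828, plus) and nlp-25 (19606180 to 19608419, plus) lie apart on V, and nlp-32 (486114 to 486547, minus) lies on III. Each has 2 exons in the annotation, and their lengths ran from 310 bp for nlp-34 to 2240 bp for nlp-25.

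The pooled list had regions at 9 of the 10 genes, against 74.2% of all protein-coding genes, with the highest ranks at nlp-33 and nlp-24. In the pooled list nlp-33 had a region of rank 75 with a signal value of 39.4, and nlp-24 one of rank 107 with a signal value of 37.9. The next were nlp-25 at rank 1698 and the divergent pair nlp-31 and nlp-34, which shared a region of rank 2088. The best ranks of nlp-27, nlp-30, nlp-29 and nlp-28 were 6682, 8650, 8742 and 18849, and nlp-32 had a region in replicate 2 alone. The ranks of most of these genes differed widely between the replicates, and nlp-33 was the one gene among the 1000 highest regions of both.

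**Figure D1:**
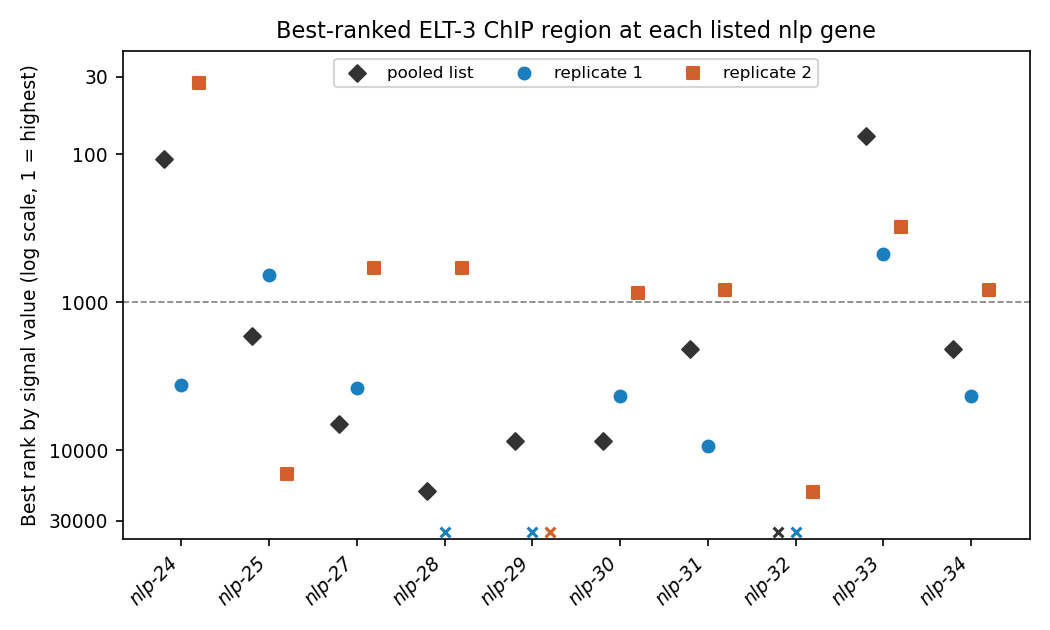
Best rank by signal value (log scale, highest at the top) of any region in the gene or 2000 bp upstream, for each of the 10 genes in the pooled list (diamonds), replicate 1 (circles) and replicate 2 (squares). Crosses at the bottom mark genes without a region in that list, the dashed line marks rank 1000, and nlp-33 is the one gene with all 3 symbols above it.

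Among the 10 genes, 9 had a pooled region, against 74.2% of all protein-coding genes (95% Wilson interval 73.5 to 74.8%). In replicate 1, 7 had a region against 74.5% of all genes, and in replicate 2, 9 had one against 74.6%. These shares are read with the length of the windows, since the listed genes are short: their windows had a median of 2428.5 bp, against 4027 bp for all genes. In a window of fixed length, from 2000 bp upstream to 200 bp after the start, 9 of 10 had a pooled region against 48.5% of all genes. Per kb of window, the listed genes had 0.947 pooled regions against 0.318 for all genes, 0.72 against 0.317 in replicate 1, and 0.53 against 0.317 in replicate 2. Some of the listed genes' regions are counted in several windows, as neighbouring windows overlap.

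The 1000 highest pooled regions fell at 2 of the 10 genes, nlp-24 and nlp-33, against 5.0% of all genes. The 5000 highest fell at 5 of 10, those genes with nlp-25, nlp-31 and nlp-34, against 21.8%. The genes nlp-31 and nlp-34 share their region. Over the 9 genes with a pooled region the best rank had a median of 2088, against 9625 over all 14812 genes with one. The IDR list, the authors' short list of 33 reproducible regions, fell at 0 of the 10 genes and at 0.12% of all genes.

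The replicates differed in how many of these genes had high regions. In replicate 2, 7 of the 10 genes had a region among the 1000 highest, against 4.97% of all genes, and in the fixed window the values were again 7 of 10, against 2.05%. The count was 4 with 1000 bp upstream and 2 with the 500 highest regions, and the share of all genes was not counted under those settings. With 2000 bp and 1000 regions the 7 genes were nlp-24, nlp-27, nlp-28, nlp-30, nlp-31, nlp-33 and nlp-34. These 7 rest on 5 distinct regions, since neighbouring windows in the cluster overlap. Of these regions, those of rank 825 and rank 866 between nlp-34 and nlp-31 overlap each other. In replicate 1, 2 of 10 did so, nlp-25 and nlp-33, against 5.18%. With 2 replicates of 1 group, no test of this difference is possible. The best ranks had a median of 825 over 9 genes in replicate 2 and of 3814 over 7 genes in replicate 1, against 9789 and 9391 over all genes with a region in those lists. A region shared between the 1000 highest of both replicates, with summits within 150 bp, was found at 1 of the 10 genes, nlp-33, and at 0.295% of all genes.

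**Figure D2:**
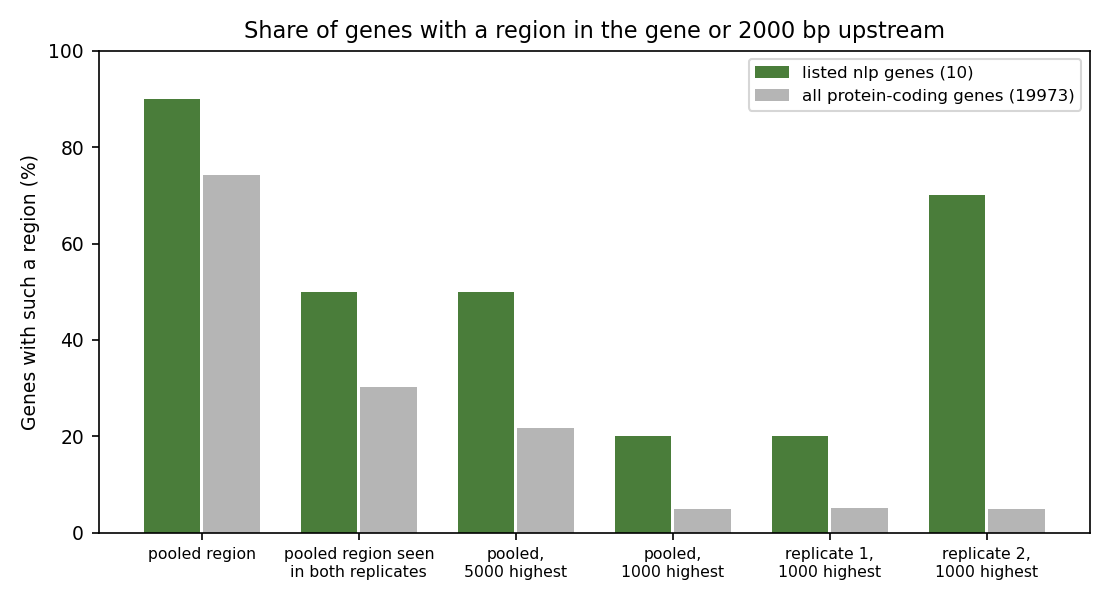
Percentage of the 10 listed nlp genes (left bar of each pair, green) and of all 19973 protein-coding genes (right bar, grey) with a region of the named kind in the gene or 2000 bp upstream. In replicate 2's 1000 highest regions the shares are 70% and 4.97%, and the first rests on 5 distinct regions.

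At nlp-33 all lists placed a high region at the start of the gene. The pooled region, chrV:11147310-11147659, had its summit 139 bp after the annotated start, in a coding exon. In replicate 1 there were 2 regions here, of rank 470 with the summit 14 bp upstream of the start and of rank 851 with the summit 193 bp after it. In replicate 2 there was 1, of rank 312, with the summit in the intron 128 bp after the start. The replicate 1 region of rank 851 lay 54 bp from the pooled summit and the one of rank 470 lay 153 bp from it, while the replicate 2 summit lay 11 bp from it. The replicates thus placed high regions over the same short gene. A region at or above rank 75 was found at 60 of the 19973 genes in the pooled list (0.3%), with nlp-33 counted. The summit also lay 477 bp upstream of T19C4.24, so its window belongs to that gene too. The authors' q-values were 0.302 in the pooled list, 0.323 for the higher region of replicate 1 and 0.169 in replicate 2. A second, weak region 1131 bp upstream had rank 22573 in the pooled list and rank 20657 in replicate 1, with no replicate 2 region within 1259 bp, and held 1 TGATAA. It also lay in the window of C06H2.7, 1421 bp upstream of its start.

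At nlp-24, a gene also described in neurons as a source of opioid-like peptides, the high region lay between genes, chrV:11614793-11615142, with its summit 1408 bp upstream. In replicate 2 it ranked 33 with a signal value of 26.9, and its summit was 13 bp from the pooled one. In replicate 1 it ranked 3655 with a signal value of 14.0, and its summit was 84 bp away. Both replicates thus had the region, but far apart in rank. Its q-value in replicate 2, 0.0769, was the lowest of any region at the 10 genes. A region this high was found at 26 of 19973 genes in replicate 2 (0.13%), and at 3395 in replicate 1 (17.0%). The 3 TGATAA sites printed above begin at 11614978, 11615001 and 11615039, all within 100 bp of the pooled and both replicate summits. Of all pooled regions, 0.337% held 3 or more. A second region at this gene, 773 bp upstream, had rank 22004 in the pooled list and rank 11278 in replicate 1, and the nearest replicate 2 summit was 648 bp away. A further region just outside the window, 493 bp after the start and beyond the gene's end, had ranks of 205, 1306 and 2834 in the pooled list, replicate 1 and replicate 2.

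At nlp-25 the replicates gave the opposite order. The region 877 bp upstream had rank 1698 in the pooled list and rank 654 in replicate 1 with the same summit. Replicate 2's nearest summit was 149 bp away, at the edge of the 150 bp allowed, and had rank 14497. The region 1692 bp upstream had rank 3643 in the pooled list, 2444 in replicate 1 and 26339 in replicate 2, whose summit was 50 bp away. Both regions ranked higher in replicate 1 than in replicate 2. Both summits lay in coding exons of kcnl-1, a potassium channel gene whose body spans this part of the window. The first codon of nlp-25 lies 1331 bp after its annotated start, and the distances given here are to that start.

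In the pooled list the highest region of the cluster lay between nlp-34 and nlp-31, which are transcribed away from each other across 920 bp. In replicate 1 the cluster's highest region was instead the one in nlp-27, of rank 3814, and in replicate 2 the one in nlp-28, of rank 586. The pooled list had 3 regions in the gap. The highest, rank 2088 with a signal value of 25.3, had its summit 257 bp upstream of nlp-31 and 664 bp upstream of nlp-34. The second, rank 8650, lay 4 bp upstream of nlp-31 and 917 bp upstream of nlp-34, and the third had rank 27774. In replicate 2 the gap held 2 regions, of rank 825 at 262 bp and of rank 866 at 44 bp upstream of nlp-31. In replicate 1 it held 1, of rank 18738 at 374 bp upstream. The pair of high regions in this gap was thus seen at high rank in replicate 2 and not in replicate 1. The replicate 1 summit lay 117 bp from the pooled summit of rank 2088, which is how that region counts as present in both replicates. The TGATAA of the printed nlp-31 stretch begins at 3980005 and lies at replicate 2's region of rank 866, whose summit is 3980011. NLP-31 has been reported to have antimicrobial activity as a purified peptide.

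**Figure D3:**
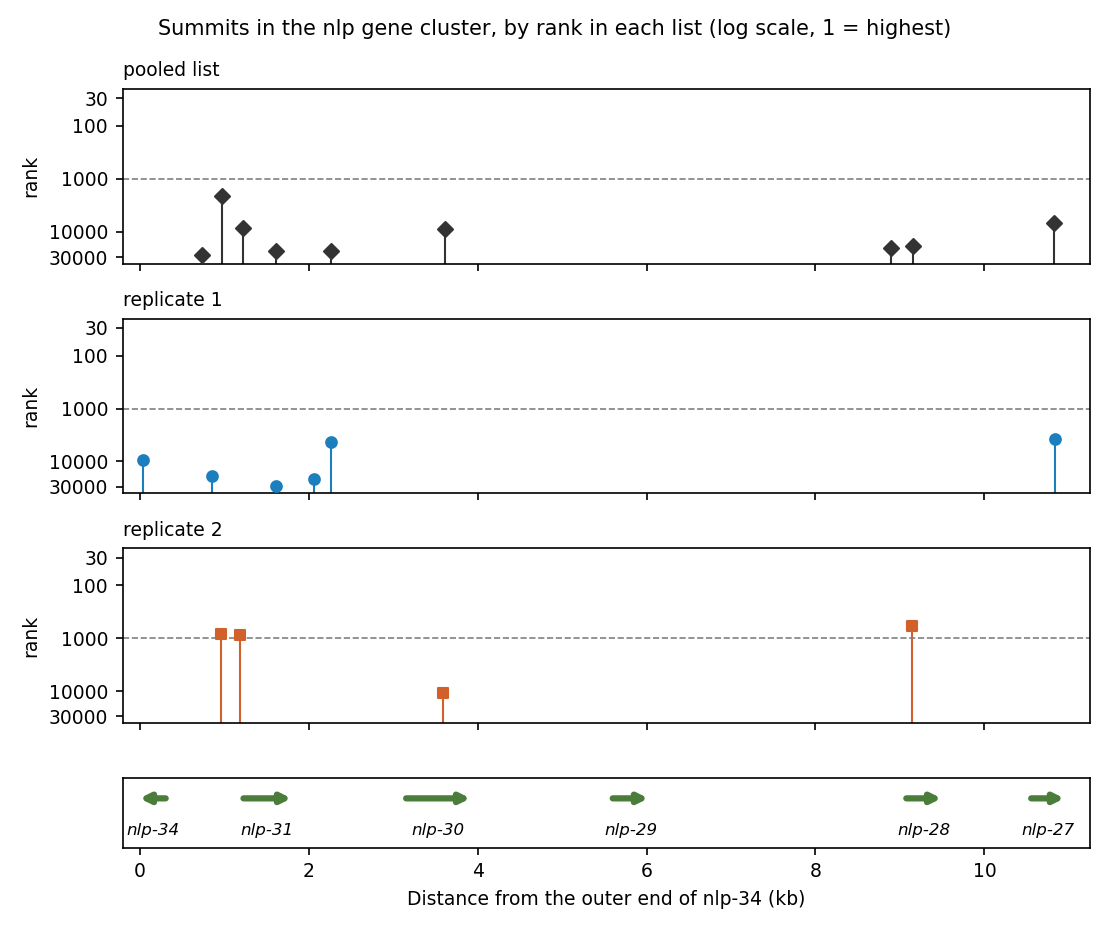
Summits in the cluster of 6 nlp genes, in kb from the outer end of nlp-34, by rank in the pooled list, replicate 1 and replicate 2 (log scale, highest at the top, dashed line at rank 1000), with the genes as arrows in their direction of transcription. The 3 summits above the line are all in replicate 2, at the nlp-34 and nlp-31 gap and at nlp-28.

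At nlp-28, replicate 2 had a region of rank 586 with its summit 73 bp after the start and a signal value of 18.6. The pooled list had this region at rank 18849, 11 bp away, and the nearest replicate 1 summit was 1670 bp from the pooled one. This was the widest gap between a replicate's rank and the pooled rank among the regions of replicate 2's 1000 highest at these genes. The same region lay 1405 bp upstream of nlp-27 in replicate 2. A second pooled region, 181 bp upstream of nlp-28, had rank 19969, and neither replicate had a summit within 150 bp of it. At nlp-27 the pooled region of rank 6682 lay in a coding exon 265 bp after the start. Replicate 1 had it at rank 3814, 11 bp away, and replicate 2's nearest summit was 1670 bp away.

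The genes nlp-30 and nlp-29 shared a region of middling rank. The pooled region of rank 8742 lay in a coding exon of nlp-30, 462 bp after its start, with rank 10962 in replicate 2 and the nearest replicate 1 summit 1347 bp away. The window of nlp-30 also reached the replicate 2 region of rank 866 and the pooled region of rank 8650 at the start of nlp-31, which lay 1969 and 1929 bp upstream of nlp-30. The region of rank 8742 in nlp-30 was the one pooled region of nlp-29, where it lay 1983 bp upstream, just inside the 2000 bp limit. The replicate 2 summit of that region lay 2008 bp upstream of nlp-29, just outside the limit, and nlp-29 had 0 regions in either replicate. The 1683 bp between nlp-30 and nlp-29 held no summit in any of the 3 lists, and 0 TGATAA and 2 GATA words. Upstream of nlp-30, a region at 887 bp had rank 23166 in the pooled list and rank 4289 in replicate 1, 2 bp apart, and replicate 2's nearest summit was 1082 bp away. Thus the usual reporter of the epidermal response had no region near its start in these larvae at the depth of these libraries, which is unknown.

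The remaining regions were low. In the coding exon of nlp-31, 382 bp after its start, the pooled list had a region of rank 22800 and replicate 1 one of rank 29480. Replicate 1 also had regions of rank 9377 in an untranslated exon of nlp-34 and of rank 21576 at 1087 bp upstream of nlp-30. Replicate 2 had one of rank 16117 in an intron of str-83, 1511 bp upstream of nlp-31. At nlp-32 one region was found, in replicate 2, of rank 19065 and 597 bp upstream. None of these was shared between the replicates within 150 bp.

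**Figure D4:**
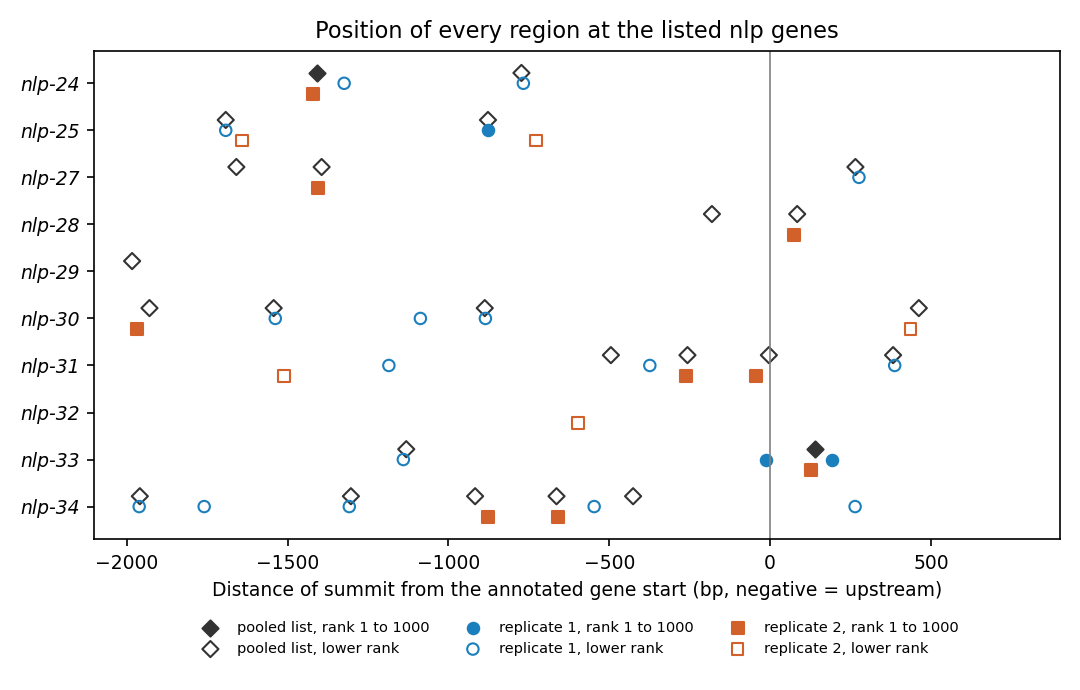
Distance in bp from the annotated start (negative is upstream) to the summit of every region in the window of each of the 10 genes, in the pooled list (diamonds), replicate 1 (circles) and replicate 2 (squares), with filled symbols for rank 1 to 1000. At nlp-33 the filled symbols of all 3 lists lie between 14 bp upstream and 193 bp after the start, while at nlp-24 they come from the pooled list and replicate 2 alone.

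Counted once each, the 9 genes held 15 pooled regions, of which 8 lay in the windows of more than 1 listed gene. Of the 15 summits, 8 were intergenic and 7 lay in coding exons. Replicate 1 had 13 distinct regions at these genes and replicate 2 had 10. A summit of each replicate lay within 150 bp of 5 of the 15 pooled regions (33.3%), against 24.0% of all pooled regions. Those 5 were the high regions of nlp-33 and nlp-24, both regions of nlp-25, and the region of rank 2088 between nlp-34 and nlp-31. By gene, 5 of 10 had a pooled region seen in both replicates, against 30.3% of all genes, and in the fixed window 5 of 10 against 13.9%. Replicate 1 and replicate 2 summits lay within 150 bp of each other at the same 5 genes, nlp-24, nlp-25, nlp-31, nlp-33 and nlp-34, against 29.8% of all genes. Within 50 bp this fell to 1 of 10, nlp-25, whose replicate 2 region ranked 26339. The share of all genes within 50 bp was not counted, so this fall cannot be set beside theirs.

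The cluster held more pooled regions than most stretches of its length. It had 9, where consecutive windows of 10946 bp across the nuclear chromosomes had a median of 3, and 1.4% of these 9157 windows had as many. Replicate 1 had 6 (12.8% of windows had as many), and replicate 2 had 4 (41.6%). Some of the 9 pooled regions overlap their neighbours, between nlp-34 and nlp-31 and at nlp-28. Of the replicate 2 regions 3 were among the 1000 highest, against 0 in the pooled list and 0 in replicate 1. How many windows held as many of the 1000 highest was not counted. By number of regions, the pooled list was thus dense there and replicate 2 was not. The cluster held 12 TGATAA sites, against a median of 11 in those windows.

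The genes are related in sequence, and reads that match 2 places could be counted at either. Words of 36 bases with another exact copy in the genome were found in 2 pooled regions, 0 of replicate 1 and 3 of replicate 2. They made up 0.299 to 0.317% of the regions in the coding exons of nlp-30 and nlp-28, and 20% of the replicate 2 region of nlp-32. How the authors placed reads with several matches is not given in the sources used.

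GATA words were counted within 100 bp of each summit. TGATAA lay at 4 of the 15 pooled regions (26.7%), against 16.4% of all pooled regions. They were both regions of nlp-24, the weak upstream region of nlp-33 and the region 4 bp upstream of nlp-31. With any of the 4 GATA words, the count was 6 of 15 (40%), against 34.1%. Over 15 regions, these shares lay close to those of the whole list. In the promoters, taken as 250 bases before to 50 after the start, TGATAA was found at 3 of 10 genes, nlp-27, nlp-31 and nlp-32, against 30.2% of all genes, and any of the 4 words at 6 of 10, against 54.5%. The promoter of nlp-31 held 5 such words. Those of nlp-25, nlp-29, nlp-30 and nlp-33 held 0. The gene with the highest pooled rank, nlp-33, was therefore one whose promoter and summit held none of these letters, and at nlp-24 the 3 sites lay over 1 kb upstream of the promoter window.

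Other genes of epidermal defence were counted by the same rule. The caenacins are a second family of glycine-rich epidermal peptides, most of them also on V. Of 11 caenacin genes, 7 had a pooled region (63.6%), against 74.2% of all genes. Of the 11, 1 (9.09%) had one among the 1000 highest, against 5.0% of all genes. This was cnc-7, whose region had rank 831 and a summit 332 bp after the gene's start. Its best ranks were 2838 in replicate 1 and 7164 in replicate 2. The next, cnc-1, cnc-4 and cnc-5, shared a pooled region of rank 12238. No caenacin gene had a region among the 1000 highest of either replicate, against 5.18% of all genes in replicate 1 and 4.97% in replicate 2. A pooled region seen in both replicates was found at 5 of the 10 listed nlp genes, 1 of 11 caenacin genes, 12 of 61 other nlp genes and 10 of 17 signalling genes, against 30.3% of all genes. The share was 50% at the listed nlp genes and 58.8% at the signalling genes, some of whose windows are much longer. In the fixed window it was 50% (5 of 10) and 23.5% (4 of 17), against 13.9% of all genes. At the caenacin genes it was 9.09% there, and at the other nlp genes 16.4%. Of 61 other nlp genes, most of them encoding neuropeptides, 47 had a pooled region (77.0%), close to the 74.2% of all genes. Of the 61, 1 (1.64%) had one among the 1000 highest, nlp-26 at rank 825, against 5.0% of all genes. The next were nlp-53 at rank 1381 and nlp-17 at rank 1441. Replicate 1's 1000 highest regions fell at 3 of these 61 genes, against 5.18% of all genes, and replicate 2's at 2, against 4.97%. In replicate 1, nlp-11, named after its values were seen, had rank 112, above the best rank of any listed gene there, 470. Its best ranks were 4205 in the pooled list and 19409 in replicate 2, and the replicates shared no summit there within 150 bp. No test of these differences between lists was made.

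Of 17 genes of the signalling upstream of nlp-29, 16 had a pooled region, against 74.2% of all genes, and 2 had one among the 1000 highest, against 5.0%. Replicate 1's 1000 highest regions fell at 2 of 17, against 5.18%, and replicate 2's at 3 of 17, against 4.97%. The kinase-like gene nipi-3, a Tribbles homologue needed for nlp-29 induction after infection, had a region 285 bp upstream of its start with rank 55 in the pooled list. Its best ranks were 1538 in replicate 1 and 116 in replicate 2. The pooled region was higher than any region of the nlp genes in the pooled list. The second was dapk-1, a death-associated kinase gene that restrains the epidermal wound response, with best ranks of 196 in the pooled list, 153 in replicate 1 and 833 in replicate 2. Its best pooled region lay 3750 bp inside the gene, whose window of 25087 bp held 12 pooled regions. The ranks of 153 and 833 belong to summits more than 150 bp apart. A shared summit among the 1000 highest of both replicates was found at 0 of the 17 genes, against 0.295% of all genes. The third was egl-8, a phospholipase C gene, at rank 1438. Some of these genes are long, with windows that reached 34053 bp at tir-1, so more regions can fall in them. The windows of nipi-3 (4655 bp) and cebp-1 (3174 bp) lay nearer the median of 4027 bp for all genes. In the fixed window, 13 of 17 had a pooled region, against 48.5% of all genes, and 1 of 17 had one among the 1000 highest of replicate 2, against 2.05%.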

How the data were processed

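The members and gene lists were chosen with earlier results of these data known. Per the deposited file listing, the authors called the pooled list on both replicates together and 1 list per replicate, each of 30000 regions in ce11, against 1 control alignment, and gave the 33 regions that passed their IDR (irreproducible discovery rate) limit as a separate list. The signal value is the authors' deposited score relative to the control, on a scale that is not stated, and it served only for ranking inside each list. The deposited lists also hold −log10 of the authors' q-value. No source used here names the aligner, the peak caller or the cut-off for the IDR list.

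Gene spans came from Ensembl release 115 and sequence from RefSeq, both WBcel235, the build of the ce11 lists. The ce10 lists were not used. Region starts were counted from 1. Summits within 150 bp were shared. GATA words were searched on both strands. Counts are descriptions, with 95% Wilson intervals that cover counting error alone. No test between samples was made, and no label says that the replicates came from separate cultures beyond calling them biological. Named from the other lists were the 3 genes of highest pooled rank, any gene in the pooled 1000 highest, and genes whose window shares a region with a listed gene. The printed stretches and the counts of the 1000 highest per replicate were chosen after their values were seen. Windows, matching and motif search were tested on simulated data. Python 3.11.15, numpy 2.4.6, pandas 2.3.3 and matplotlib 3.10.9 were used.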

Additional observations from a re-analysis of the deposited data

How the results depend on the processing

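Of 72 alternatives over 12 values, 63 left a count within 1.5 times or a share inside its interval. These limits are wide for 10 genes and 15 regions, and a count of 9 of 10 cannot rise by 1.5 times. The promoter share with TGATAA of 30% became 60% with any of the 4 GATA words and was still inside its interval. So was the region share of 26.7%, which became 13.3% within 50 bp of the summit. The other 9 alternatives follow, and their cause was not tested. Genes with a region in both replicates were 8 with 5000 bp upstream and 1 within 50 bp. Pooled regions seen in both replicates fell at 1 gene within 50 bp, and at 7 to 9 when 1 replicate was left out. The 1000 highest pooled regions fell at 1 gene with 1000 bp upstream, since the nlp-24 region lies further away, and with 1 replicate's list in place of the pooled one at 2 to 7 genes. Among settings chosen after seeing the data, replicate 1's high regions fell at 1 gene with 500 regions, and replicate 2's at 4 genes with 1000 bp upstream and at 2 genes with 500 regions, nlp-24 and nlp-33. With 1000 or 5000 bp upstream, within 50 bp or with 500 regions, the shares of all genes were not counted. No paired analysis was possible because there is 1 group. With no read totals, a gene without a region cannot be told apart from one whose signal the depth did not show.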
